A study of Homo sapiens with 41 samples.

Results

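HDAC6 chromatin immunoprecipitation (ChIP) peak lists of MDA-MB-231 cells with and without HDAC6 knockdown were compared, to learn which control peaks were called again after knockdown and what the remaining knockdown peaks are. MDA-MB-231 is an epithelial human cell line established from a breast cancer that lacks the hormone receptors and HER2. The 4 samples were chosen by their titles from the 41 of the series: 1 control sample with a CST antibody to HDAC6, labelled replicate 1, 1 control sample with a Novus antibody, labelled replicate 2, and 2 shHDAC6 samples with the same Novus antibody, labelled replicates 1 and 2. Control cells are labelled Ctrl with no further agent, and shHDAC6 cells are labelled with a hairpin against HDAC6; all grew in serum-containing medium. The Novus control list is therefore the antibody match of the knockdown lists, and the CST list is a second control. HDAC6 ChIP lists of control-hairpin cells, of input DNA and of the sample labelled as negative control of the shHDAC6 ChIP were not analysed here, so the hairpin procedure and the loss of HDAC6 cannot be told apart. The labels give neither the hairpin's sequence, nor whether a line is 1 clone, nor whether samples of a group are separate cultures. The p-values therefore rank only these 4 lists, whose differences may be technical, and the control lists differ in antibody. Each library was made from 100000 cells. The 28 peak lists of the other assays and conditions served as annotation.

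HDAC6 is a deacetylase found mostly in the cytoplasm, where it acts on tubulin, cortactin and HSP90 and binds ubiquitin through a zinc finger. It has also been placed on chromatin in nuclei. ChIP reads protein on DNA through an antibody, and knockdown of the target is a common control of such an antibody. The level of HDAC6 protein left in the shHDAC6 cells is not given in the sources used here.

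Of the 64 Novus control peaks of highest −log10 p, 35 were found in shHDAC6 replicate 2, and 30 of these lay within 1 kb of an annotated start. This does not hold for the CST control, where 1 of the strongest 29 peaks lay at a start. Sequences of some of those promoters and of NFE2L1 are shown first, because most such windows hold the letters of 1 motif. Each is 300 bases of RefSeq sequence on GRCh38.p14, from 250 bases before to 50 bases after an annotated start, 5′ to 3′ on the strand of the gene. Capitals mark CCAAT or, for the other strand, ATTGG, the letters of the CCAAT box that NF-Y is known to bind. The first 4 had a peak in both control lists and in shHDAC6 replicate 2. SP2 (chr17:47895986-47896285, plus strand) encodes a zinc finger transcription factor of the Sp family, and its window holds 8 matches, some of them overlapping. OSBP (chr11:59615725-59616024, minus strand), which encodes a sterol-binding protein, holds 5 matches. DNM2 (chr19:10717829-10718128, plus strand) encodes the endocytic GTPase dynamin 2 and holds 3 matches. EVI5L (chr19:7829968-7830267, plus strand), a Rab GTPase-activating protein gene, holds 1 match. NFE2L1 (chr17:48048109-48048408, plus strand), which encodes a transcription factor of proteasome genes, holds 5 matches and had a peak in all 4 lists. Its −log10 p in the Novus control, 5.96, was below the 6.04 of the weakest of the strongest 64 peaks.
SP2: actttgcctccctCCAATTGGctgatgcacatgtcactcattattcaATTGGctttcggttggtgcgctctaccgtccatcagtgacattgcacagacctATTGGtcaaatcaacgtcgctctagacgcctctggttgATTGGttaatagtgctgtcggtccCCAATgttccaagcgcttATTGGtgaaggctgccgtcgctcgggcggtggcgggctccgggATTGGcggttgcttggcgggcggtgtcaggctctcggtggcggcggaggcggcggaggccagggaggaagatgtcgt
OSBP: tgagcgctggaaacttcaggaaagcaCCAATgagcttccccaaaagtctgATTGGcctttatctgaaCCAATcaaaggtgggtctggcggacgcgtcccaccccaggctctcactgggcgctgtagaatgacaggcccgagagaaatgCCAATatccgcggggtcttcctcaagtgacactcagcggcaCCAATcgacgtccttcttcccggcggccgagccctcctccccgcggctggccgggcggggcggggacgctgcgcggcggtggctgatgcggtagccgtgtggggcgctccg
DNM2: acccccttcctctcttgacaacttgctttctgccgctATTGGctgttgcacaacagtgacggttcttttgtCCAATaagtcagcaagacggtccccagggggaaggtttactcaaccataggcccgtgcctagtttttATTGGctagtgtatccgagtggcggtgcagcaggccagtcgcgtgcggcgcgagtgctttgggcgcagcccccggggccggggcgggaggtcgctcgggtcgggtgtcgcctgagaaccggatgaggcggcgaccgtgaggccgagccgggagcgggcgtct
EVI5L: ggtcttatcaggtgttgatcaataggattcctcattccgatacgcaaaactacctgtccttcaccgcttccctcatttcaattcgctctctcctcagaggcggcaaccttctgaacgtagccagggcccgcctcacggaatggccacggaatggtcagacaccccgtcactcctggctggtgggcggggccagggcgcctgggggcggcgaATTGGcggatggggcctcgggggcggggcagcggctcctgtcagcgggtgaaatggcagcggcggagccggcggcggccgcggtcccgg
NFE2L1: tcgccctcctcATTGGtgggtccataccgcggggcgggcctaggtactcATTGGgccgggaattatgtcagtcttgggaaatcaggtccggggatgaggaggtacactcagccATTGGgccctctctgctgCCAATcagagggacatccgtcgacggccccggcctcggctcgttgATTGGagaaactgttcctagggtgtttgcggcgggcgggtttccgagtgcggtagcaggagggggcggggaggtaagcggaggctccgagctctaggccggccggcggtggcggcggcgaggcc

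A further 3 windows show that the letters and the persistence of a peak did not always go together. PCIF1 (chr20:45934433-45934732, plus strand), the gene of an mRNA cap methyltransferase, has no match and yet had a peak in both control lists and in shHDAC6 replicate 2. TOMM40 (chr19:44891004-44891303, plus strand), which encodes the pore of the mitochondrial import machinery, has 5 matches and had a peak in both control lists and neither knockdown list. TANGO6 (chr16:68843281-68843580, plus strand), a gene of transport and Golgi organization, has no match and also had its peaks in the control lists alone.
PCIF1: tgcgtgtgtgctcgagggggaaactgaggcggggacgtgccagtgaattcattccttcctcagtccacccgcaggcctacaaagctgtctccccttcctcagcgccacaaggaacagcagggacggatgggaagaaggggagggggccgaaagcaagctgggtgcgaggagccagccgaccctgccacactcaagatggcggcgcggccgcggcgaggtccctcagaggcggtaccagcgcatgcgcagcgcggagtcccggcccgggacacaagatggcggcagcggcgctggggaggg
TOMM40: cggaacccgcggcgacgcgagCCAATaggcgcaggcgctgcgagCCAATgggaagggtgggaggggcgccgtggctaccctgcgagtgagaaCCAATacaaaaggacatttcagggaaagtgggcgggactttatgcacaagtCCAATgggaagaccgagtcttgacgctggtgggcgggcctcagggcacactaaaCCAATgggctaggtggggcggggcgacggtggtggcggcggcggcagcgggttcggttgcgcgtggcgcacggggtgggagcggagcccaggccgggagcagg
TANGO6: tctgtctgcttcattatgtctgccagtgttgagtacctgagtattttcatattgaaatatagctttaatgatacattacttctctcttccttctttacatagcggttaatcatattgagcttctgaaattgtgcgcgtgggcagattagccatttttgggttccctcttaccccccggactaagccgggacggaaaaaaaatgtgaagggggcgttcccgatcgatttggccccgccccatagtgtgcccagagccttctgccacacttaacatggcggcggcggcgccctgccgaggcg

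The knockdown lists were shorter than the control lists as deposited, but the lists had not been made alike. They held 16441 and 12152 peaks in shHDAC6 replicates 1 and 2, against 63833 in the Novus control and 28590 in the CST control. They covered 7.93 and 5.40 Mb, against 33.7 and 19.1 Mb. Both knockdown lists lay below both control lists in each measure (two-sided exact permutation test over lists, p = 0.333, which is the lowest value this design allows). The weakest peak in the Novus control and in replicate 2 had a −log10 p of 2.00, that in replicate 1 had 2.5, and that in the CST list 3.26. At a common floor of 2.5 the Novus control held 13297 peaks, replicate 1 held 16441 and replicate 2 held 3316, so replicate 1 was then longer than its antibody-matched control. Peak numbering shows how much of each call was kept: 100% in the CST list, 23.2% in the Novus control, 5.07% in replicate 1 and 20.1% in replicate 2. Most peaks of the Novus lists were weak. A q-value of 0.05 or less was reached by 179 peaks of the Novus control, 11 of replicate 1 and 20 of replicate 2, against 20589 of the CST list. Read depth is not in these lists, and a place without a peak is one where none was called.

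Few control peaks were called again after knockdown. Of 63833 Novus control peaks, 467 (0.732%) overlapped a peak of replicate 1 and 480 (0.752%) a peak of replicate 2. Of 28590 CST control peaks, 337 (1.18%) overlapped replicate 1 and 401 (1.40%) overlapped replicate 2. The knockdown lists overlapped each other still less: 84 peaks of replicate 1 (0.511%) met replicate 2, and 84 peaks of replicate 2 (0.691%) met replicate 1. The Jaccard index, the shared length over the joint length, was 0.00166 between the knockdown lists, 0.00312 and 0.00439 between the Novus control and replicates 1 and 2, and 0.0402 between the control lists. Novus control peaks that the CST antibody also marked were called again more often than the others. In replicate 2 it was 103 of 3628 such peaks (2.84%) against 377 of 60205 Novus-only peaks (0.626%), and in replicate 1 it was 72 (1.98%) against 395 (0.656%). The peaks with CST support were wider, with a median of 815.5 bp against 337 bp. CST support also rose with strength, from 3.25% of Novus control peaks below the median −log10 p to 81.25% of the strongest 64. The parts of width and strength in the difference in peaks called again were not tested.

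The share of Novus control peaks found in replicate 2 was highest among the strongest. Novus control peaks were ranked by their −log10 p within the list. Among peaks below the median, 184 of 31916 peaks (0.577%, exact 95% binomial interval 0.496 to 0.666) were found in replicate 2. Between the 90th and 99th percentile it was 63 of 5745 (1.10%, 0.844 to 1.40), in the 575 peaks next below the strongest 64 it was 18 (3.13%, 1.87 to 4.90), and among the strongest 64 it was 35 (54.7%, 41.7 to 67.2). These intervals cover counting error only. The strongest 64 were also wider, with a median of 922 bp, against 487 bp in the next 575 and 353 bp below the median −log10 p. The part of width in these shares was not tested. The Novus control and replicate 2 share the label of replicate 2 and a −log10 p floor of 2.00, which replicate 1 does not, and the part of this in the contrast between the knockdown lists was not tested. In replicate 1 the shares were 0.702% below the median, 0.870% in those 575 and 6.25% (4 of 64, 1.73 to 15.2) at the top. The CST list showed another order: of its strongest 29 peaks, 6 (20.7%, 7.99 to 39.7) were in replicate 1 and 1 (3.45%, 0.0873 to 17.8) in replicate 2. When the Novus control peaks were ranked by fold in place of −log10 p, 21 of the strongest 64 (32.8%) were in replicate 2, and when at least 50% of the peak had to be covered, 23 (35.9%).

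**Figure D1:**
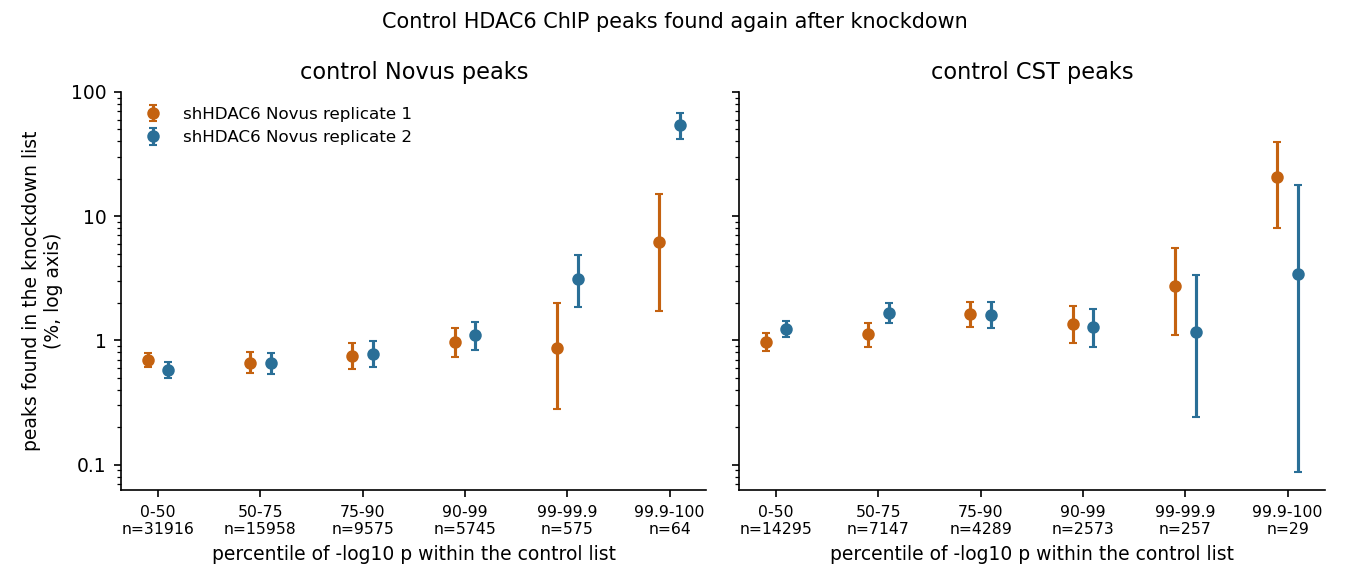
Share of control peaks that overlap a peak of each knockdown list (%, log axis), by percentile class of −log10 p within the control list. Left, Novus control; right, CST control; circles are shares in shHDAC6 replicate 1 (orange) and replicate 2 (blue), with exact 95% binomial intervals and the number of peaks under each class. The share in replicate 2 reaches 54.7% in the top class of the Novus control, and the share in replicate 1 reaches 6.25% there.

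The same places led the shHDAC6 replicate 2 list. Its strongest 13 peaks all overlapped peaks of both control lists and none of replicate 1, and 12 of them lay within 1 kb of an annotated start. All 13 also had an ATAC peak, a mark of open chromatin, in each of the 12 ATAC lists of the series. In replicate 1 the strongest 17 peaks behaved differently: 4 met the Novus control, 8 met the CST control, 1 met replicate 2 and 0 lay within 1 kb of an annotated start. Annotated starts are not complete, and 2 of the 17, at HBB and HBG2, lay within 1 kb of a gene end. Over the whole lists, 465 peaks of replicate 1 (2.83%) and 480 of replicate 2 (3.95%) met the Novus control, and 336 (2.04%) and 401 (3.30%) met the CST control.

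SP2 carried the highest peak of the Novus control. The fold of its peak, which is the authors' enrichment over the caller's background and is read only within its own list, was 15.4 in the Novus control (chr17:47895474-47897284), 2.77 in the CST control and 5.50 in replicate 2, and no peak was called in replicate 1. In replicate 2 this was the peak of highest −log10 p, 17.8, and its fold stood at percentile 99.98 of that list. EVI5L had the highest fold of replicate 2, 6.71, beside 7.01 in the Novus control and 2.82 in the CST control. DNM2 had 7.03 in the Novus control, 2.98 in the CST control and 4.38 in replicate 2. OSBP had 6.79, 3.81 and 4.17 in the same order. HNRNPL, which encodes a splicing regulator, had 6.44, 2.87 and 3.92. Each of these 5 promoters had a peak in 3 of the 4 lists and none in replicate 1.

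Among the 26 Novus control peaks with a −log10 q of at least 5, 18 were found in replicate 2, 2 in replicate 1 and none in both. Of the 18, 16 lay within 1 kb of an annotated start, 17 had a CST control peak and 17 had an ATAC peak in all 12 lists. Their folds ran from 3.29 to 15.4 in the Novus control and from 1.89 to 6.71 in replicate 2. The transcription factor genes RFX1 (5.39 in the Novus control, 3.37 in replicate 2) and CIC (6.22 and 4.27) were among them. So were GATAD2A (5.38 and 2.19), which encodes a subunit of the NuRD deacetylase complex, and PABPN1 (5.31 and 3.41), a nuclear poly(A)-binding protein gene. A peak near the kinase gene NLK (5.19 and 3.74) was another. Genes of signalling and vesicle transport followed: TOM1L2 (4.99 and 3.32), RAB11B (4.04 and 2.21), PRKACA (3.88 and 2.80), the netrin receptor gene UNC5B (3.63 and 2.499) and CRK (3.29 and 1.89). The peaks of TOM1L2 also marked DRC3. PCIF1, with 3.97 and 4.25, was the 1 gene of the 18 whose fold in replicate 2 was not below that in the control list. Its −log10 p was 9.95 in the control and 12.4 in replicate 2. The lists differ in length and threshold, so a lower or higher fold is no measured change.

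KHSRP and SP1 were among the genes with a higher fold in the replicate 2 list than in either control list. PCIF1, STT3A (4.08 in the Novus control, 3.29 in the CST control and 4.36 in replicate 2) and SLC25A25 (3.41, 2.94 and 3.60) were others. The peaks of SLC25A25 also marked NAIF1. Of the 35 strongest Novus control peaks found in replicate 2, 30 had a lower fold there than in the Novus control. Folds are read only within a list, so neither order is a measured change. KHSRP, the gene of an RNA-binding protein, had a fold of 3.36 in the Novus control, 3.17 in the CST control and 5.54 in replicate 2, with no peak in replicate 1. Its peaks also marked SLC25A41. SP1, a transcription factor gene of the same family as SP2, had 3.94, 2.89 and 5.35. With SP2, EVI5L, DNM2, PCIF1, CIC and a peak beside NLK (chr17:28040734-28041989), KHSRP and SP1 make up the 8 peaks of replicate 2 with a −log10 q of at least 5. All 8 overlapped both control lists.

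The strongest control peaks that were not called again in either knockdown list also included promoters. There were 6 of 26. TANGO6 had a fold of 4.39 in the Novus control and 3.10 in the CST control, TOMM40 had 4.07 and 2.66, and GPAM, which encodes an acyltransferase of glycerolipid synthesis, had 4.07 and 3.07. The others lay in the calcium channel gene CACNA1H (chr16:1174745-1175391, 5.11), near GRPEL1 (chr4:7076046-7076552, 4.65) and near TBXT (chr6:166005483-166006340, 4.04). The first 2 of those had no CST peak and no ATAC peak in any list.

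**Figure D2:**
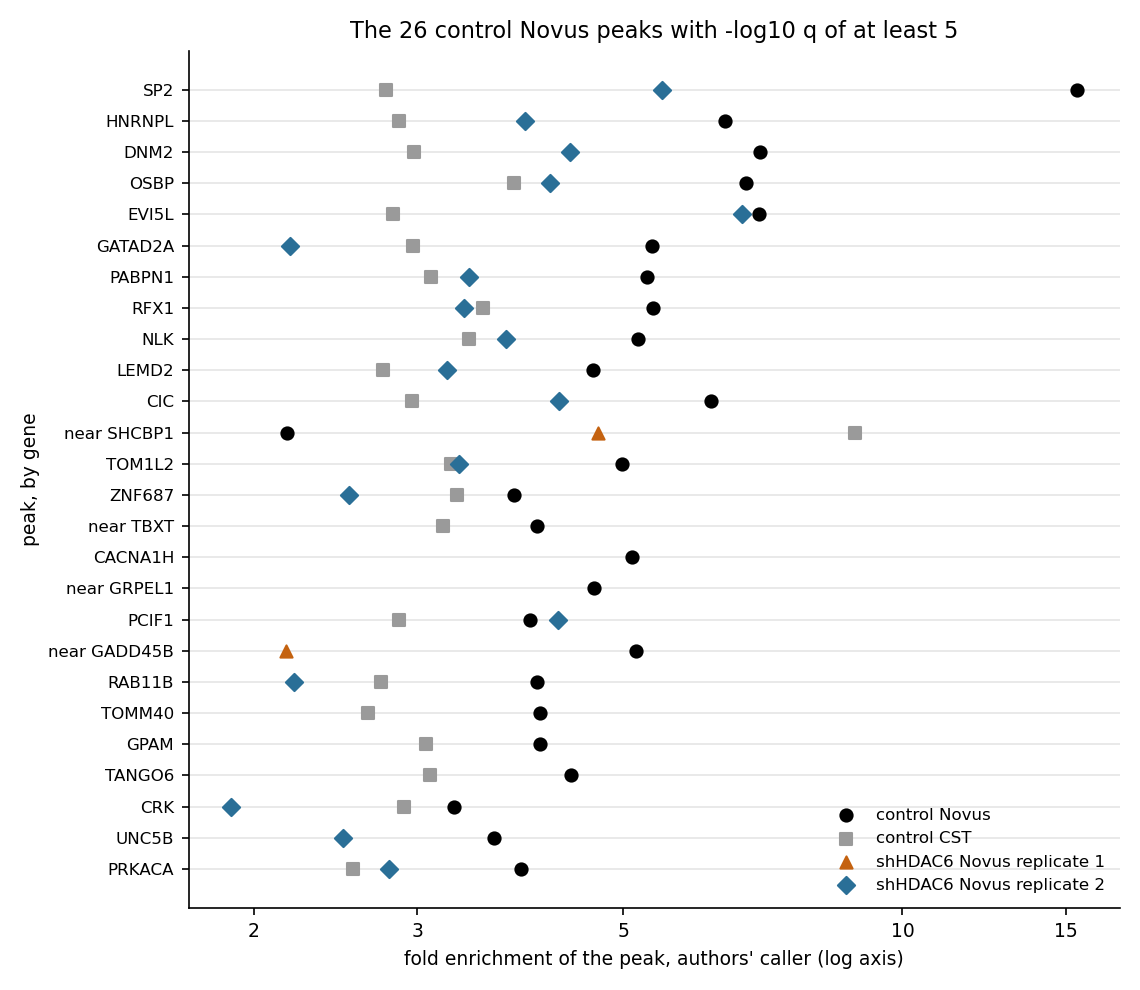
Fold enrichment given by the authors' caller (log axis) for the 26 Novus control peaks with a −log10 q of at least 5, 1 row a peak, ordered by −log10 p and named by gene. Circles are the Novus control, squares the CST control, triangles shHDAC6 replicate 1 and diamonds replicate 2; a missing mark means no peak was called. Diamonds stand in 18 rows and triangles in 2, and no row has both.

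The CCAAT box letters were frequent in the promoters found in replicate 2. Among all 34959 promoter windows, 34.6% held CCAAT on either strand. Of the windows under the strongest 1% of Novus control peaks, 53 of the 63 that also met replicate 2 held it (84.1%), against 106 of the 308 that did not (34.4%). At least 2 matches were found in 69.8% of the first and 15.3% of the second, against 10.7% of all windows. The share moved with strength as well. Under the strongest 64 peaks alone, 40 of 45 windows found in replicate 2 held it (88.9%) and 19 of 30 not found (63.3%), a smaller gap. Under the 575 peaks next in strength it was 13 of 18 (72.2%) and 87 of 278 (31.3%). The 63 windows lie under 41 peaks, since neighbouring starts can share a peak, and with 1 window per peak the share was 34 of 41 (82.9%). Over Novus control peaks of every strength that met replicate 2, 75 of 119 windows (63.0%) held CCAAT. For replicate 1 it was 18 of 59 (30.5%). Promoters with a peak in both control lists and neither knockdown list held it in 797 of 2655 windows (30.0%), and windows open in all 3 control ATAC lists in 38.7%.

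Of the 17 strings searched, the CCAAT box differed most. The letters of the GC box that Sp factors bind (GGGCGG) stood in 45.0% of all windows, in 90.5% of the strongest windows found in replicate 2 and in 83.8% of those not found, a difference of 6.71 percentage points against 49.7 for the CCAAT box. The GC box was common at HDAC6 peaks in general, with 81.0% of windows under Novus control peaks and 75.5% of those under CST peaks. Matches of both strings can share bases where a GC box follows a CCAAT box of the other strand. The other 15 strings differed between the found and not found windows by at most 6.31 points, reached by the CREB motif in part. The median GC content was 64.3% in the strongest windows found in replicate 2, 71.3% in those not found, and 58.7% over all windows. Within windows of 55 to 65% GC, the CCAAT box stood in 37 of 44 of the windows shared by the Novus control and replicate 2 (84.1%), 170 of 414 with both control peaks and no knockdown peak (41.1%), and 36.0% of all. At 65 to 75% GC the shares were 63.3% (19 of 30), 34.9% and 29.4%, and at 75% GC or more, 28.1% (9 of 32), 18.5% and 18.5%. Below 55% GC they were 76.9% (10 of 13), 32.8% and 40.4%. The gap was thus smallest in the windows richest in GC. Peak strength was not matched in these shares. Windows under the strongest 1% of Novus control peaks, found again or not, held the CCAAT box in 55% of cases below 55% GC. The share was 66.7% (54 of 81) at 55 to 65% GC, 45.4% at 65 to 75% and 21.2% at 75% or more. A match describes letters in a window and shows no bound factor.

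**Figure D3:**
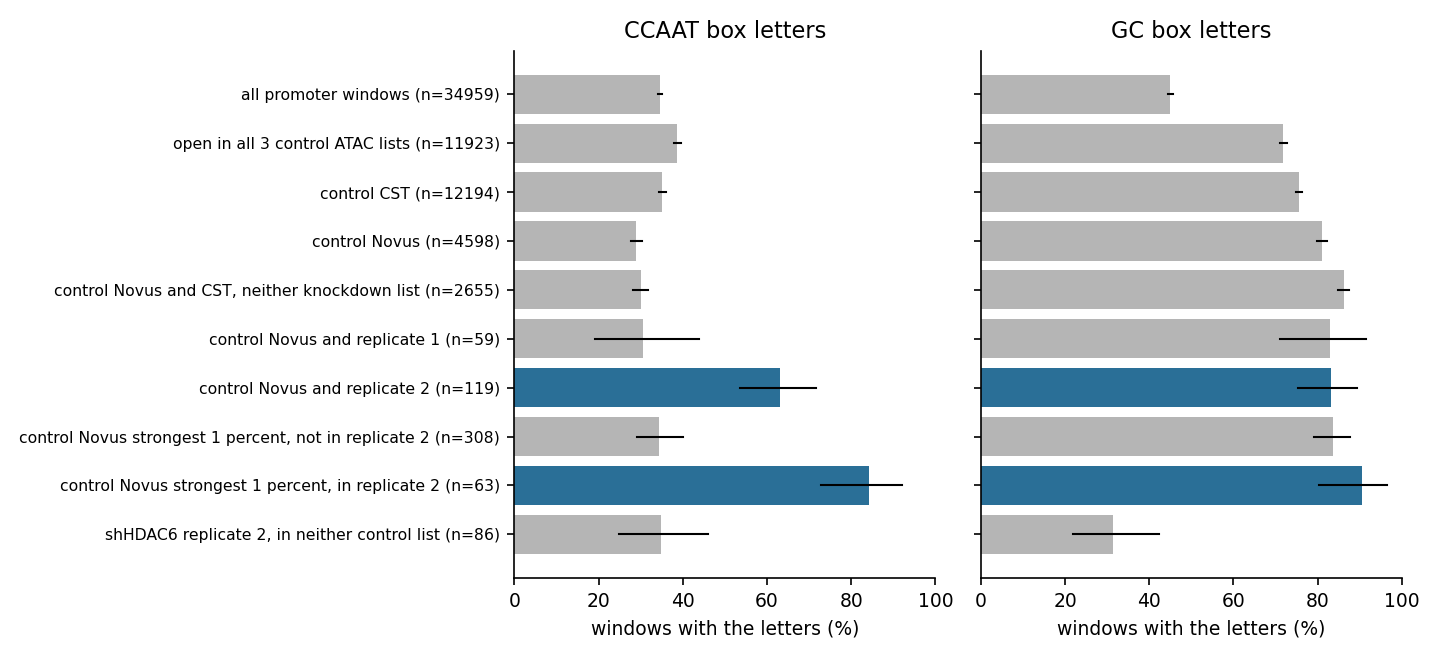
Share of 300-base RefSeq promoter windows (%) that hold the CCAAT box letters (left) and the GC box letters GGGCGG (right), by the peak lists that overlap the window. Bars are shares with exact 95% binomial intervals, n is the number of windows, and blue bars are windows with a peak in the Novus control and in shHDAC6 replicate 2. Neighbouring windows can share a peak, and the intervals make no allowance for this, so they are too narrow. CCAAT reaches 84.1% in the strongest windows found in replicate 2 and 34.4% in those not found, while GGGCGG stands at 90.5% and 83.8%.

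Chromosome 19, which is dense in genes, held many of these promoters. It carried 58 of the strongest 639 Novus control peaks (9.08%) against 2.00% of that list, and 9 of the strongest 122 peaks of replicate 2 (7.38%) against 2.02%. In replicate 1 it carried 3 of the strongest 165 (1.82%) against 3.45% of the list. Without chromosome 19, 24 of 48 peaks left of the strongest 64 were found in replicate 2 (50%). CCAAT then stood in 40 of 46 windows (87.0%) of the strongest 1% that met replicate 2.

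The highest peaks of shHDAC6 replicate 1 lay elsewhere. Its first lay at HBB, the beta-globin gene (chr11:5226659-5227315), with a fold of 14.1 and a −log10 p of 174. It was 0.084 kb from an end of the gene, for which no annotated start was used. The second lay within CFTR, a chloride channel gene (chr7:117587507-117588117), 108 kb from the gene's end, with a fold of 11.5 and a −log10 p of 33.7. Another was at HBG2, a fetal gamma-globin gene (chr11:5254716-5255189), 0.172 kb from an end of that gene, with a fold of 8.95. None of these 3 places had a peak in the Novus control, the CST control or replicate 2. At HBB an ATAC peak was called in the first control list (fold 8.69) and the first inhibitor list (fold 5.19) and in no other of the 28 lists, while CFTR and HBG2 had a peak in none of them. The 3 peaks were 657, 611 and 474 bp wide. They were singled out after their values were seen. The lists hold no reads, so whether the DNA counted there came from chromatin of the cells was not tested.

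The other 3 peaks of replicate 1 with a −log10 q of at least 5 lay far from gene ends and were shared with a control list. The peak at chr1:125179947-125180481 had a fold of 9.27 in replicate 1, 23.3 in the CST control and 2.00 in the Novus control. At chr17:26603640-26604127 the folds were 8.87 in replicate 1 and 21.9 in the CST control. At chr21:8234067-8234787 they were 7.07 in replicate 1, 3.02 in the Novus control and 2.73 in the CST control, and an ATAC peak was called there in all 12 lists. The nearest gene ends were 3783, 690.2 and 404.8 kb away. The strongest 29 peaks of the CST control, which include chr3:93470282 onward with a fold of 70.2, lay far from starts too: 1 of 29 was within 1 kb of an annotated start. No peak was left out for lying in repeats or in places of unusually high signal. Whether the places named here are of that kind was not tested.

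Peaks found only after knockdown made up nearly all of both knockdown lists. Of replicate 1, 15700 of 16441 peaks met neither control list, and of replicate 2, 11373 of 12152. Their median fold was 2.28 in replicate 1 and 2.89 in replicate 2, beside 2.27 and 2.84 for the peaks that met the Novus control. Gene starts were rare among them, with 2.61% within 1 kb of a start in replicate 1 and 1.86% in replicate 2, against 14.8% and 22.5% of the peaks shared with the Novus control. An ATAC peak in all 3 shHDAC6 ATAC lists was found at 0.414% and 0.563% of them, against 10.1% and 17.3% of the shared peaks. PolII peaks in both shHDAC6 lists met 1.06% and 0.923%, against 14.8% and 27.9%. In none of the 28 other lists was there a peak at 86.6% and 85.4% of the knockdown-only peaks. Novus control peaks without a CST peak had much the same traits, with 85.2% in no other list, 3.21% at starts and 0.742% with an ATAC peak in all 3 shHDAC6 lists. Strength separated the replicates: of the peaks with a −log10 p above 5, 31 of replicate 1 met neither control list and 4 met both, whereas 5 of replicate 2 met neither and 21 met both.

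**Figure D4:**
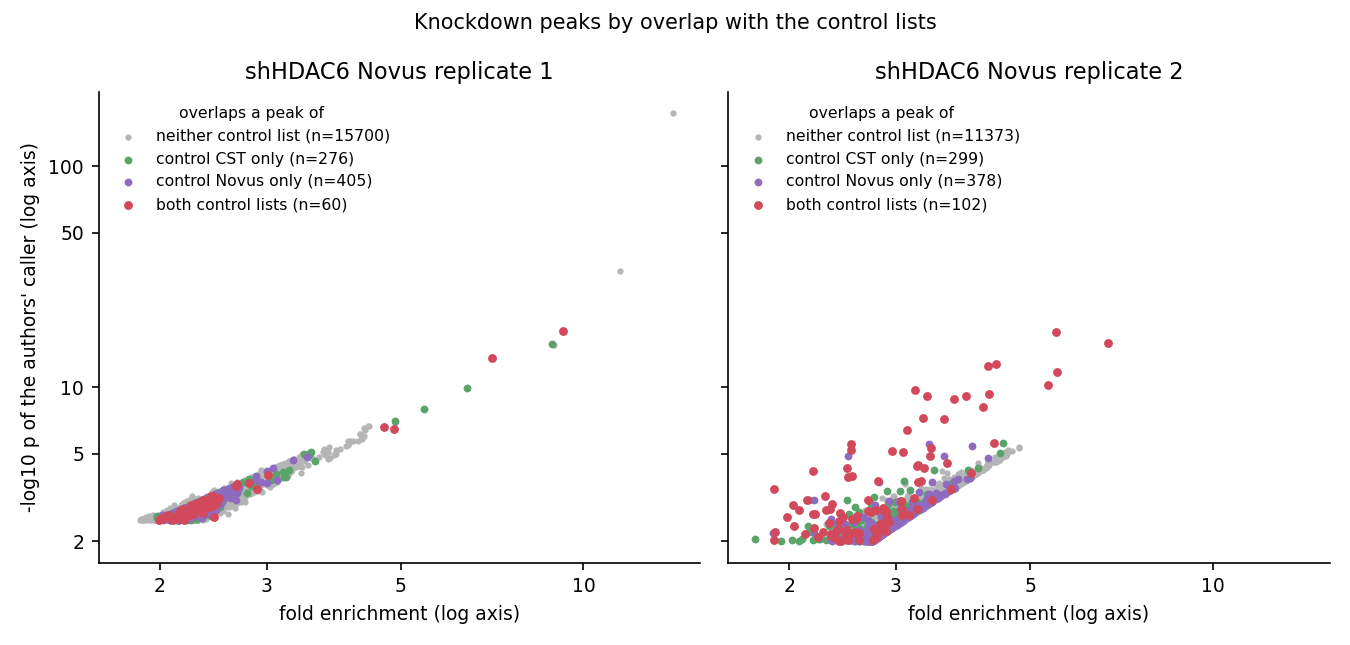
Each point is a peak of shHDAC6 replicate 1 (left) or replicate 2 (right), placed by the authors' fold enrichment and −log10 p (both log axes) and coloured by the control lists it overlaps. In replicate 2 the upper points overlap both control lists (red), up to a −log10 p of 17.8; in replicate 1 the highest point, at 174, overlaps neither (grey).

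Of 26997 regions in a knockdown list and in neither control list, only 74 had a peak in both knockdown lists. Their folds ran from 1.99 to 2.77 in replicate 1, with a median of 2.27, and from 2.39 to 3.78 in replicate 2, with a median of 2.82, and no −log10 q exceeded 0.170 and 0.279. Of the 74, 4 had a gene start within 1 kb, 39 lay inside a protein-coding gene, 10 had an ATAC peak in any list and 58 had a peak in none of the 28 other lists. The highest by mean percentile of fold was chr5:118209980-118210337, 755 kb from the nearest gene end, with folds of 2.65 and 3.58. The next was chr16:86718560-86718932, 135 kb from FOXL1, with 2.77 and 3.41. AUTS2, a neuronal development gene, held the third in its body (2.62 and 3.38), GABBR2, a GABA receptor subunit gene, the fourth (2.38 and 3.41), and the fifth lay 538 kb from the serotonin receptor gene HTR1E (2.54 and 2.998). FGF14 (2.48 and 3.04) and the claudin gene CLDN17 (2.32 and 3.45) had theirs near a start, and TRPM6 (2.36 and 3.13) within the gene. At a common −log10 p floor of 2.5, 16 regions were left, and with a −log10 q of at least 5, 0.

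Regions with a peak in the Novus control and in both knockdown lists numbered 8, of which 3 also had a CST control peak. NFE2L1 (chr17:48047770-48048850) had folds of 3.23 in the Novus control, 3.16 in the CST control, 2.36 in replicate 1 and 2.04 in replicate 2. BCL3, which encodes an atypical regulator of NF-kB, had 2.51, 2.65, 2.30 and 2.54 (chr19:44747439-44749435). Both had an ATAC peak in all 12 lists. The third, chr17:26880431-26886005, lay 411 kb from the nearest gene end and had 2.43 in the Novus control, 16.0 in the CST control, 6.42 in replicate 1 and 3.17 in replicate 2. Whether it lies in repeats or in a place of unusually high signal was not tested. The remaining 5 regions had no CST peak and no ATAC peak: 1 lay in IFT122 (2.34 in the Novus control, 2.03 in replicate 1 and 3.37 in replicate 2), 1 in PPP2R2B (2.35, 2.01 and 3.07), 1 in TMEM132D (2.42, 2.02 and 2.89), 1 was 204 kb from SLITRK2 (2.45, 2.22 and 2.86) and 1 was 422 kb from FHIT (2.14, 2.10 and 2.86). A further 5 regions had a peak in the CST control and both knockdown lists. They included the promoters of PPIL4 (3.04 in the CST control, 2.46 in replicate 1 and 2.77 in replicate 2), SLC35A3 (3.83, 2.36 and 2.45) and the isoleucyl-tRNA synthetase gene IARS1 (3.63, 2.08 and 2.77). The percentile of fold in replicate 2 ran over the 8 kept regions from 0.0823 at NFE2L1 and 1.27 at BCL3 to 83.4 at chr17:26880431-26886005 and 93.0 at IFT122. In replicate 1 it ran from 1.49 at PPP2R2B to 99.96 at chr17:26880431-26886005.

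Over protein-coding genes, 4691 of 19974 (23.5%) had a Novus control peak within 1 kb of a start and 10916 (54.7%) a CST control peak, against 574 in replicate 1 and 380 in replicate 2. These counts too lay below both controls in both knockdown lists (two-sided exact permutation test, p = 0.333, again the lowest value allowed). Of the 4691, 4366 (93.1%) had a peak in neither knockdown list, 165 (3.52%) kept it in replicate 1 alone, 157 (3.35%) in replicate 2 alone and 3 (0.0640%) in both. Of the 15283 genes without a Novus control peak, 406 had a peak in replicate 1, 220 in replicate 2 and 9 (0.0589%) in both. The share in both was thus much the same with and without a Novus control peak. The 3 were NFE2L1, BCL3 and PHACTR2, a regulator of phosphatase and actin, whose folds were 2.54 in the Novus control, 4.37 in the CST control, 2.25 in replicate 1 and 2.59 in replicate 2. Genes kept in replicate 2 alone had PolII in both control lists in 85.4% of cases and an HDAC6 peak in both control lists of CUT&Tag, which cuts DNA beside the bound antibody, in 58.6%. For lost genes the shares were 72.0% and 41.7%, for genes kept in replicate 1 alone 71.5% and 39.4%, and over all genes 56.1% and 36.5%.

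Among lost genes with a CST control peak, the highest by fold in the Novus control were PDZD2 (5.29 in the Novus control and 3.20 in the CST control), the angiotensin receptor gene AGTR1 (4.58 and 3.27) and AXL (4.44 and 2.499), a receptor tyrosine kinase gene and a marker of this line. TANGO6, TOMM40 and GPAM, given above, came next, followed by the scaffold gene TANC2 (3.99 and 3.53), SNAP25 (3.93 and 3.08), which encodes a protein of vesicle fusion, the mitochondrial coenzyme A carrier gene SLC25A42 (3.899 and 3.14) and HDGFL2 (3.86 and 3.20). Their percentiles of fold in the Novus control were 99.89 to 99.99. Of 15283 genes without a Novus control peak, 9 (0.0589%) had a peak in both knockdown lists. CLASP2, which encodes a microtubule plus-end protein, was the highest, with 2.41 in replicate 1 and 4.58 in replicate 2, and had a CST control peak of 3.91. PPIL4, SLC35A3, IARS1 and the clathrin light chain gene CLTB (2.36 and 2.45) had a CST peak as well. FGF14, CLDN17, ANKRD24 (2.70 and 2.61) and BTN3A1 (2.00 and 2.94) had none, so that 4 of the 9 genes lacked a peak in both control lists.

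HDAC6 itself had no peak within 1 kb of a start in any of the 4 lists. Both HDAC6 CUT&Tag lists of control cells had one there, with folds of 3.98 and 4.24. PolII was called there in both shCtrl lists, with folds of 3.72 and 3.10, and in both shHDAC6 lists, with 6.21 and 5.82. A hairpin acts on the transcript, so these values do not check the knockdown.

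The 12 pathway lists are read against the 93.1% lost over all genes. Over their 235 genes, 78 had a Novus control peak and 69 of these (88.5%) had none in either knockdown list. None was kept in both, 2 were kept in replicate 1 alone and 7 in replicate 2 alone. All Novus control peaks were lost in HDAC6 partners and substrates (5 of 5, with the autophagy receptor gene SQSTM1 at a fold of 2.24 in the Novus control), in histone deacetylases and sirtuins (6 of 6, HDAC4 at 2.67), in CTCF, cohesin and condensin (5 of 5, the cohesin regulator gene PDS5A at 2.38) and in AP-1 and YAP/TEAD genes (9 of 9, the YAP target CCN1 at 2.79). Kept in replicate 2 alone were the tubulin gene TUBB4B (2.02 in the Novus control and 3.43 in replicate 2), the acetyltransferase gene KAT7 (2.29 and 2.35), the cell cycle kinase gene CDK2 (2.70 and 3.27), the cochaperone gene STIP1 (2.30 and 2.54), MAP1LC3B (2.201 and 2.03), which encodes an autophagosome protein, the ribosomal gene RPL4 (2.22 and 2.90) and ATP5F1B (2.45 and 2.32), a subunit gene of ATP synthase. Kept in replicate 1 alone were PIK3CA (2.05 in the Novus control and 2.06 in replicate 1) and NDUFV1 (2.48 and 2.15), a complex I gene. The remaining lists lost 9 of 10 (growth signalling), 7 of 8 (autophagy and lysosome), 5 of 6 each (tubulins, acetyltransferases, cell cycle and ribosomal proteins), 4 of 5 (chaperones) and 4 of 6 (oxidative phosphorylation). With 5 to 10 genes a list, no list is set apart from all genes by these counts.

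The label of the cell line was set against marker genes in the other assays. In cells labelled Ctrl, 52.4% of all genes had an ATAC peak in all 3 lists and 56.1% had PolII in both. Of the markers, 9 of 12 mesenchymal and MDA-MB-231 ones had such ATAC peaks and 11 had PolII, against 5 and 4 of 12 luminal markers, 1 and 2 of 8 basal markers, 2 and 1 of 10 leukocyte markers, 3 and 3 of 10 neuron markers and 2 and 0 of 10 fibroblast and endothelial markers. Over the 6 lists, 11 of 62 markers (17.7%, against 23.5% of all genes) had a Novus control peak and all 11 were lost, near the 93.1% over all genes.

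The place of a peak moved with its strength, and differently in each list. In the Novus control 6.85% of peaks lay within 1 kb of an annotated start, rising to 37.7% in the 575 peaks next below the top class and 71.9% in the strongest 0.1%. In replicate 2 the same shares were 3.29%, 24.8% and 92.3%. In replicate 1 they were 3.67%, 2.70% and 0% (0 of 17, 2 of which lay within 1 kb of an end of a gene without an annotated start). The CST control held 33.6% at starts in all. Its share rose from 23.4% below the median to 50.7% between the 75th and 90th percentile, stood at 42.6% between the 90th and 99th, and was 1.95% and 3.45% in the top 2 classes. An ATAC peak in all 3 control lists stood at 73.4% of the strongest Novus control peaks, 100% of those of replicate 2, 11.8% of those of replicate 1 and 6.90% of those of the CST control. Within the strongest 1% of Novus control peaks, 44 of 263 at a start were found in replicate 2 (16.7%), against 9 of 376 away from starts (2.39%).

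**Figure D5:**
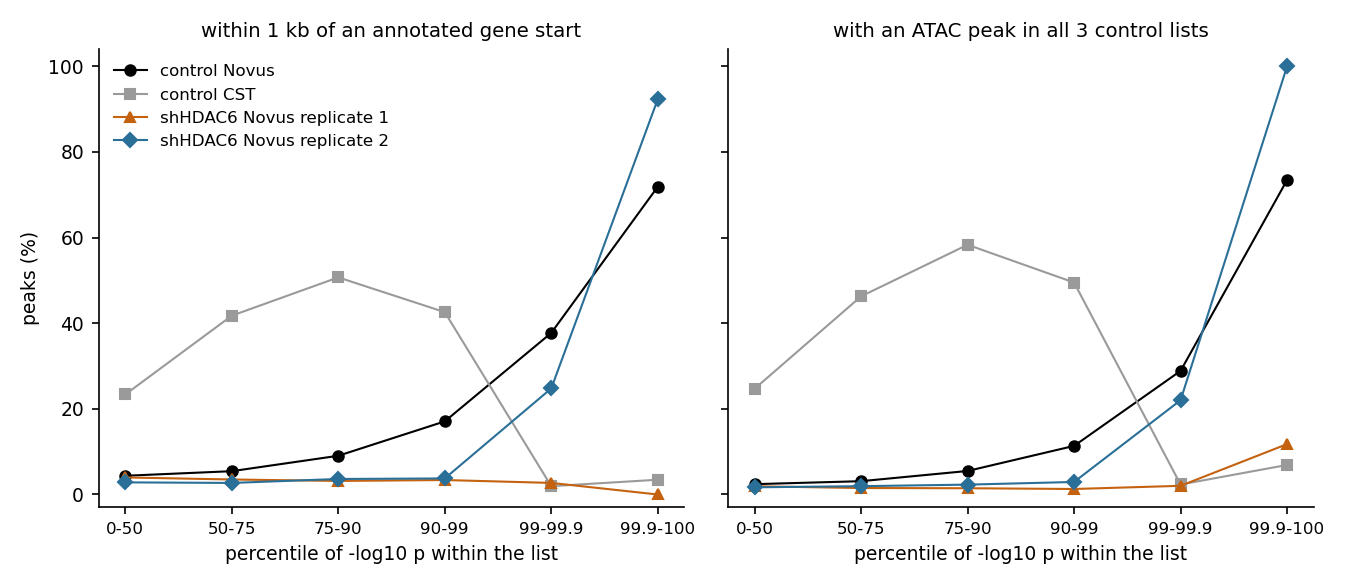
Share of peaks (%) within 1 kb of an annotated gene start (left) and with an ATAC peak in all 3 control ATAC lists (right), by percentile class of −log10 p within each HDAC6 ChIP list. Lines join the classes of the Novus control, CST control and the 2 knockdown lists. The share at starts ends at 71.9% for the Novus control and 92.3% for replicate 2, and at 0% of annotated starts for replicate 1 and 3.45% for the CST control.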

How the data were processed

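The authors' deposited peak lists, 1 per sample and without a header, gave each peak's interval, an integer score, its fold over the caller's background (a linear ratio) and −log10 of p and q. MACS2 2.2.7.1, Bowtie2 2.4.4, ChIPseeker 1.28.2, Trim Galore 0.6.7, deepTools 3.5.1 and SAMtools 1.13 stand in the submitters' processing notes, with the build hg38. The role of each tool is not given in the sources used here. The authors' score was not used, and their fold and −log10 values served to rank or filter peaks within a list.

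Repeated intervals were kept once, on chromosomes 1 to 22 and X. Peaks were not filtered for repeats or for places of unusually high signal. Peaks were matched by an overlap of at least 1 bp, and regions were the merged peaks of the 4 lists. Gene starts came from RefSeq on GRCh38.p14 for 15812 of 19974 protein-coding genes. Of genes without one, 3183 took the end marked in the larger number of the 28 other lists, and 979 tied genes kept both. A gene was marked by a peak within 1 kb of any of its starts. A gene with a Novus control peak was lost where neither knockdown list had one and kept where both had one, and a gene without it was gained where both knockdown lists had a peak. Promoter windows of 300 bases were searched on both strands for 17 letter strings. The CCAAT box was read as CCAAT and the GC box as GGGCGG. The TATA box was read as TATAAA and the AP-1 motif as TGAGTCA. The CREB motif was read as TGACGTCA in whole and, overlapping it, as TGACGT in part. The ETS motif was read as CCGGAAG and the E-box of the MYC family as CACGTG. A CpG-rich palindrome was read as TCGCGA and the YY1 motif as AAGATGGC. The NRF1 motif was read as GCATGCGC, the motif of the TEAD family as GGAATG and the motif of the RFX family as GTTGCC. The other 4 were longer forms of the palindrome, the YY1 motif and the NRF1 motif, each holding the shorter string, and the ZNF143 motif.

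Members, gene lists and comparisons were chosen with earlier results of these data known, and the strength classes and letter strings after their values were seen. Genes were named by rule: HDAC6, then gene ends kept in both knockdown lists, the 10 lost of highest fold percentile with a CST peak, those gained, up to 3 per gene list, and the 8 highest kept and knockdown-only regions. Genes named among the strongest peaks were chosen by their values. Only peak number, covered length and marked genes were tested, by exact permutation, and the overlap code was tested on simulated peaks. Alternatives covered the peak threshold, list length, overlap, window, control list and each list left out. Python 3.11.15 with pandas 2.3.3, scipy 1.17.1 and matplotlib 3.10.9 was used. The 9 samples without a peak list were not analysed here.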

Additional observations from a re-analysis of the deposited data

How the results depend on the processing

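No paired analysis was possible because each antibody has 1 control list and the shares come from no test. Of 92 alternatives, 46 were labelled as the same, 46 as moved and 0 as reversed, by rules that differ between results. For peak number, covered length and marked genes only the sign counted, and only these could be labelled as reversed. The difference in peak number, -31915 in the main setting, was -333 with −log10 q of at least 5 and -11065 at the common floor. Shares were held against the spread of the lists, and region and gene counts against a fixed ratio. The strongest peaks and CCAAT were held against a binomial interval. The lists with their own thresholds limit every count, and read depth is unknown. The knockdown lists stayed below the controls in mean peak number, covered length and marked genes under every alternative run. At the common floor the CST list kept all its 28590 peaks, while replicate 1 (16441) was longer than the Novus control (13297). The exact p was 0.333 or 0.667, so the design cannot place these differences past a threshold. Leaving out 1 list at a time gave knockdown minus control differences of -49536.5 to -14293.5 peaks, -27.0 to -12.4 Mb and -10439 to -4214 genes.

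The share of Novus control peaks found again, 0.742% as the mean of both knockdown lists, was 11.5% with −log10 q of at least 5, 1.03% at equal list length, 0.786% at a common −log10 p floor of 2.5, 0.529% with 200 bp of overlap, 0.345% with 50% covered and 1.74% within 1 kb. For CST control peaks (1.29%) it was 0.153% with −log10 q of at least 5, 0.883% at the common floor, 0.911% with 200 bp, 0.588% with 50% covered and 2.24% within 1 kb. The 11.5% and 0.153% are means of very unequal knockdown lists, with standard deviations of 16.3 and 0.216 percentage points. The agreement of the knockdown lists (0.601%) was 0%, 0.428% and 0.308% with −log10 q of at least 5, equal length and the common floor, and 0.372%, 0.274% and 1.52% with 200 bp, 50% covered and 1 kb. Leaving out a knockdown list gave 0.732% to 0.752% for Novus and 1.18% to 1.40% for CST.

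The 8 kept regions were 0 with −log10 q of at least 5, 2 at equal length and 0 at the common floor, and 482 to 491 when 1 knockdown list sufficed. The 74 knockdown-only regions were 0, 47 and 16 in the same order, and 11371 to 15700 with 1 list. Lost genes (4366) were 15, 1979 and 2073, and 10343 with the CST list as control, with 4523 to 4531 when 1 list was left out. Kept genes (3) were 0 with −log10 q of at least 5, 1 at the common floor, 8 with the CST list and 14 with a 3 kb window, and 160 to 168 with 1 list. Gained genes (9) were 0, 3, 4 and 27 in the same order, and 220 to 406 with 1 list. A count that needs 1 knockdown list in place of both is larger by its construction. The common floor, the strength classes and the sequence comparisons were chosen after seeing the data. The strongest control peaks found in replicate 2 (54.7%) were 32.8% when ranked by fold and 35.9% with 50% covered, and CCAAT in windows of the strongest 1% found in replicate 2 (84.1%) was 63.0% over control peaks of every strength; the cause was not tested.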
